A study of Mus musculus with 12 samples.

Results

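Loss of p21 was examined among livers from which the drug NTBC had been withdrawn. Members were chosen from the array titles and the source labels: the 3 livers of Fah single knockout mice and the 2 livers of Fah, p21 double knockout mice on the 430A array, 5 of the 12 samples of the series. All mice of the series were 10 weeks of age, and these 5 lacked Fah and had been given water without NTBC for 14 days. The groups therefore differed by their p21 genotype, and are called Fah off livers and Fah p21 off livers here. The 4 other 430A livers form the titles' normal group and were 1 wildtype liver on water, 1 wildtype liver on NTBC, 1 Fah knockout liver on NTBC and 1 Fah p21 double knockout liver on NTBC. The 430 2.0 array was used for 3 more samples: 2 livers of Fah p21 double knockout mice 14 days off the drug, and 1 of a double knockout mouse kept on it, titled normal replicate 4 as on 430A. The labels name neither the strain and sex of the mice nor how each allele was made. The titles call the arrays biological replicates, and p-values measure the spread between these samples.

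p21, the product of Cdkn1a, binds cyclin and cyclin-dependent kinase complexes and is a main target of the DNA damage responsive factor p53. When p21 holds these kinases back, the Rb family proteins stay unphosphorylated and keep genes of S phase and mitosis silent. Fah splits fumarylacetoacetate at the end of tyrosine catabolism, and hepatocytes without it are injured by upstream metabolites once NTBC, an inhibitor of an earlier enzyme, is taken away. In adult liver, hepatocytes are mostly out of the cell cycle and re-enter it after tissue loss or injury. The comparison asks which transcripts of the injured, Fah-deficient liver differ when p21 is missing.

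Signals below are the authors' array values for a probe set, on a linear scale. Differences are on a log2 scale after an offset of 9.9 was added to each signal, so they are understated for dim probe sets. Alb, encoding serum albumin, had signals from 11573 to 13806 in the 5 livers, and Hnf4a, a hepatocyte transcription factor, from 2203 to 2686, so the defining hepatocyte markers were present. In whole tissue, more cells of a kind and more RNA per cell cannot be told apart.

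The targeted genes were read first. Fah had signals of 113.5, 100.8 and 107.5 in Fah off livers 1, 2 and 3 and of 114.2 and 105.3 in Fah p21 off livers 1 and 2, against 6868 and 7120 in the wildtype livers. All 5 livers off NTBC were thus low for Fah and their 2 groups overlapped. Cdkn1a is represented by a pair of probe sets, which differed in what they showed. The one ending in _a_at read 989.5, 1861.5 and 1195.5 in the Fah off livers and 9.5 and 8.2 in the Fah p21 off livers. It was lower with p21 loss by a log2 difference of -6.13 ± 0.43 (SE, n = 2 against 3; limma, adjusted p = 0.0009). The other read 2814, 3676 and 3936 in the Fah off livers and 1828 and 2060 in the Fah p21 off livers, a log2 difference of -0.82 ± 0.41 that did not pass (adjusted p = 0.703). In the normal livers that second probe set read between 75.2 and 257.7, so it rose off NTBC in the double knockout livers too, by 3.57 ± 0.39 over normal (adjusted p = 0.00017). The sources used here state neither which part of Cdkn1a each probe set covers nor which part the allele lacks, so the second probe set is no check of the genotype.

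**Figure D1:**
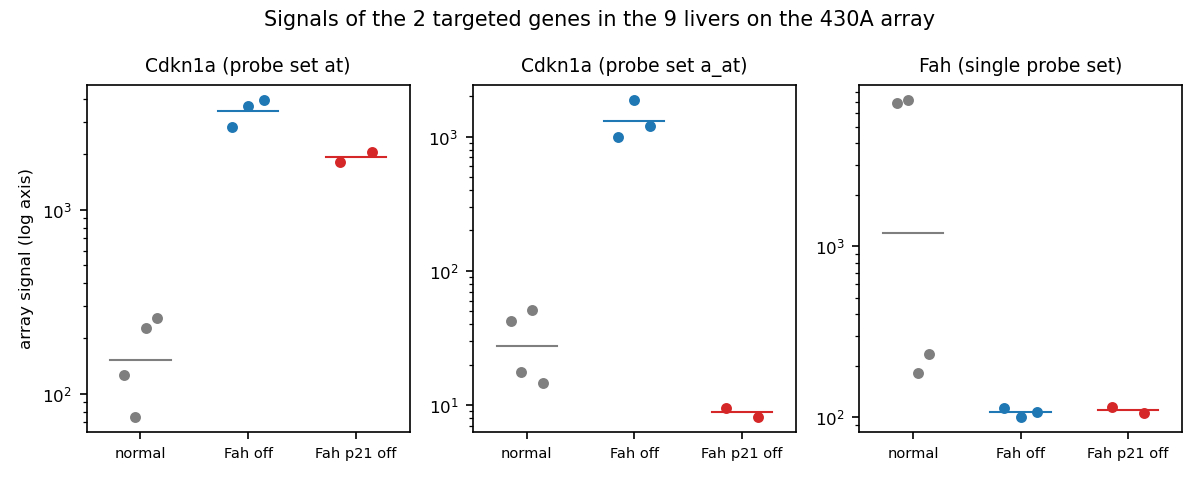
Array signals on log axes of both Cdkn1a probe sets and of Fah in the 4 normal, 3 Fah off and 2 Fah p21 off livers of the 430A array, with 1 point per liver and a line at the geometric mean. The Cdkn1a probe set ending in _a_at is at 9.5 and 8.2 in the Fah p21 off livers, while the other stays above the normal livers there.

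Across the whole array, 8 of 22626 probe sets passed at an adjusted p under 0.05, which is 0.0354%, with 7 higher and 1 lower in the Fah p21 off livers. The lower one was Cdkn1a. Read by the brightest probe set of each gene, 4 of 12393 genes passed, which is 0.0323%: Cdc6, Cdk1, Defa3 and Hccs. The split was 9 higher and 8 lower after scaling to a common median, 6 and 4 after quantile normalization, and 14 and 7 with an offset at the 25th percentile of signals. Cdk1, the kinase that drives entry into mitosis, read 73.2, 84.8 and 30.4 in the Fah off livers and 549 and 1616.5 in the Fah p21 off livers, and rose 14.0-fold (log2 3.81 ± 0.48, limma adjusted p = 0.0418). Cdc6, which loads the replicative helicase onto origins, read 2.4, 2.8 and 4.5 against 53.2 and 45.2 and rose by 2.17 ± 0.19 (adjusted p = 0.0034). For both genes each Fah p21 off liver stood above every Fah off liver. With only the 5 arrays off NTBC in the fit neither passed (adjusted p = 0.274 for Cdk1 and 0.159 for Cdc6), and no probe set passed as higher. Hccs, which attaches heme to cytochrome c, read 564.8, 509.4 and 548.4 against 1285.4 and 995.8 and rose 2.07-fold (log2 1.05 ± 0.14, adjusted p = 0.0487). Its other probe set read 1273.7 and 807.1 in the Fah p21 off livers, above the 500.1 of the highest Fah off liver, without passing (adjusted p = 0.0872). Ska1, a kinetochore protein, read 2.2, 1.3 and 2.2 against 26.4 and 68.1 by the probe set that passed (log2 2.17 ± 0.28, adjusted p = 0.0418). A brighter Ska1 probe set did not follow it, with 20 and 9.4 in the Fah p21 off livers against 10.6, 35.5 and 14.9 in the Fah off livers. Defa3, annotated as a defensin, was dim throughout, with 8.7, 5.8 and 3.4 against 41.9 and 44.3 (log2 1.75 ± 0.21, adjusted p = 0.0418). The remaining pair of probe sets has no single gene symbol and is left unnamed. In the fit of the 5 arrays alone Hccs and Defa3 did not pass either (adjusted p = 0.274 for each). Ska1 and Defa3 were named after their values had been seen.

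The number of calls depended on which livers entered the fit. Without Fah p21 off liver 1, 151 probe sets passed, 139 of them higher; that fit holds 1 Fah p21 off array, whose spread is assumed to be that of the other groups. Leaving out any other one of the 9 arrays left 2 or 3. At an unadjusted p under 0.05 there were 1721 probe sets. Over the 12393 genes with a single symbol, each read by its brightest probe set, 2260 were higher in both Fah p21 off livers than in all 3 Fah off livers, which is 18.2%, and 1154 were lower in both than in all 3, which is 9.31%. By unadjusted p, 5.50% of genes were higher and 2.74% lower. The median difference over all genes was 0.08. It was -0.01 after quantile normalization and -0.06 after scaling to a common median. Just outside the threshold stood Birc5 and Mcm5, both higher, and Igfbp2, lower, each at an adjusted p of 0.0515. Counts of list members below are read against these shares, and none of them is a test of a list.

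Genes of mitosis stood together at the high end. Of 62 measured genes of chromosome segregation and cell division, 58 were higher in both Fah p21 off livers than in any Fah off liver and none was lower in both, and 56 had an unadjusted p under 0.05. Their median difference was 1.64, while 1 of them, Cdk1, passed after adjustment. Birc5, the survivin subunit of the chromosomal passenger complex, read 33.5, 18.3 and 7.6 against 204.6 and 678.3 (log2 3.79 ± 0.52, limma adjusted p = 0.0515). Leaving out any 1 of the 5 livers left between 58 and 61 of the 62 higher without overlap. Such a count cannot fall with fewer livers, so it is no check of the result. The median of the 62 was then between 1.10 and 2.23. With 1 liver fewer, the share of all genes higher without overlap was between 23.9% and 38.7%.

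The largest bright rises were nearly all of this kind. This set was chosen after the values had been seen, from genes without overlap and bright in both Fah p21 off livers. The separation of its groups was thus fixed by the choice. Ube2c, the ubiquitin-conjugating enzyme that works with the anaphase promoting complex, read 122.4, 102.1 and 96.0 against 349.1 and 1499.5. Cdc20, an activator of that complex, read 188.9, 160.5 and 133.4 against 448.7 and 1861.7. Plk1, a mitotic kinase, read 46.8, 100.8 and 64.2 against 184.3 and 934.4. In each of the 3, Fah p21 off liver 2 was higher than liver 1. Mki67, the proliferation marker Ki-67, read 26.1, 46.7 and 28.3 against 124.9 and 686.4. Top2a, which untangles sister chromatids, read 81.5, 63.2 and 45.6 against 248.1 and 890.7 by its brightest probe set. Its log2 difference was 2.75 by that probe set and 1.35 for the mean of its 2 probe sets. Prc1, a bundler of central spindle microtubules, read 87.5, 73.4 and 76.2 against 273.7 and 1099.5. None of these 6 passed after adjustment (adjusted p from 0.0872 for Prc1 to 0.268 for Ube2c). Ttk, a spindle checkpoint kinase, had a difference of 2.67 ± 0.59.

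The sizes differed between the double knockout livers. In 59 of the 62 mitosis genes the signal of Fah p21 off liver 2 exceeded that of liver 1, against 5318 of all 12393 genes. The exceptions were Cdca3, a regulator of mitotic entry, at 191.2 in liver 1 and 132.5 in liver 2, Cenpf, a kinetochore protein, at 208.3 and 176.8, and Bub1, a checkpoint kinase, at 20 and 14.5. For these 3 genes the probe sets disagreed. The brightest Bub1 probe set read 18.7, 18.7 and 18.6 in the Fah off livers, a difference of -0.08. A dimmer one read 3.2, 2.3 and 2 against 32 and 228.7, a difference of 3.01 ± 0.54. Other probe sets of Cdca3 and Cenpf read 200.1 and 921.4, and 145.2 and 482.4, in Fah p21 off livers 1 and 2.

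**Figure D2:**
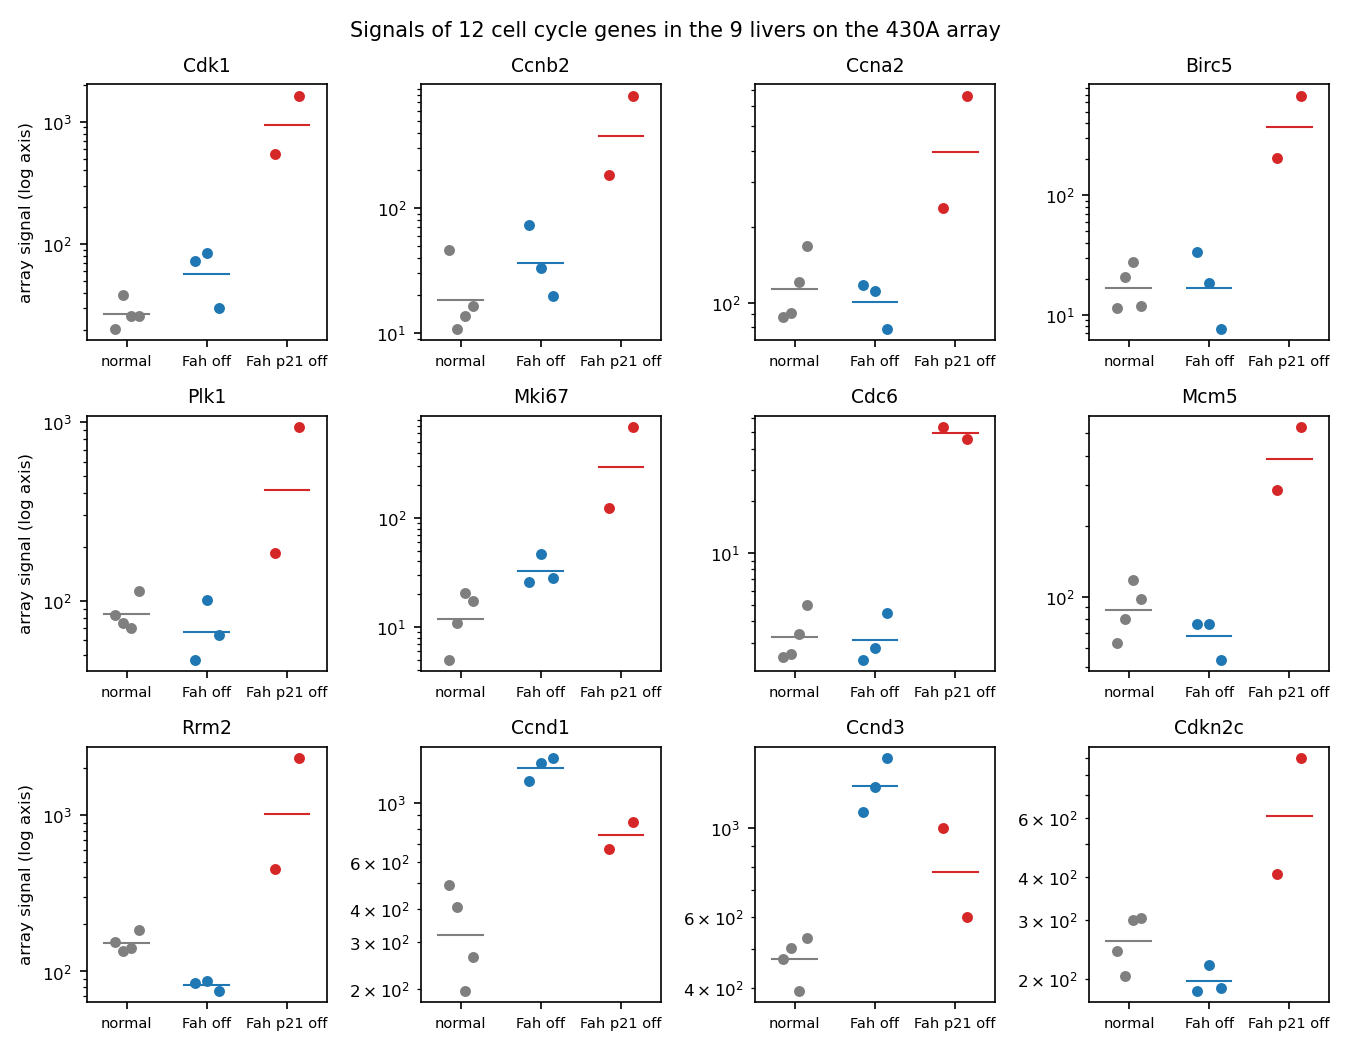
Array signals on log axes of 12 cell cycle genes in the 4 normal, 3 Fah off and 2 Fah p21 off livers of the 430A array, with 1 point per liver and a line at the geometric mean. Cdk1, Ccnb2, Ccna2, Birc5, Plk1, Mki67, Cdc6, Mcm5, Rrm2 and Cdkn2c are higher in both Fah p21 off livers than in all 3 Fah off livers, and Ccnd1 and Ccnd3 are lower.

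Cyclins, kinases and their activators differed in both directions. Of 22 measured members, 11 were higher without overlap and 3 lower, with a median of 0.50 and 1 called, Cdk1. Without Fah p21 off liver 2 the median was 0.23. Ccnb2, cyclin B2 and a partner of Cdk1, read 72.7, 33.3 and 19.6 against 183.2 and 786.5 (log2 3.05 ± 0.64, limma adjusted p = 0.16). Ccna2, cyclin A2 of S phase and early mitosis, read 117.5, 110.9 and 78.7 against 238.2 and 659 (log2 1.88 ± 0.41, adjusted p = 0.175). Cks1b, a small Cdk-binding protein, read 665.4, 669.6 and 718.7 against 1496.4 and 2186 (log2 1.39 ± 0.24). These mitotic and S phase partners were all higher in both double knockout livers. The phosphatases that activate Cdks were higher without overlap too, with differences of 1.59 for Cdc25c, 0.77 for Cdc25b and 0.52 for Cdc25a. Ccne2, cyclin E2, differed by 0.90 and Ccne1, cyclin E1, by 0.33, the latter with overlap.

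Of the D-type cyclins, which act early in G1, Ccnd1 and Ccnd3 had lower values in the double knockout livers and Ccnd2 did not. Ccnd1 read 1207, 1411 and 1478 in the Fah off livers and 674 and 847.9 in the Fah p21 off livers (log2 -0.84 ± 0.32, limma adjusted p = 0.566). Ccnd3 read 1092, 1257 and 1486 against 1000 and 601 (log2 -0.70 ± 0.22, adjusted p = 0.442). Both were below all 3 Fah off livers in both double knockout livers, and neither passed. Against the normal livers Ccnd1 rose by 2.06 ± 0.27 in the Fah off livers (adjusted p = 0.0003) and by 1.22 ± 0.30 in the Fah p21 off livers (adjusted p = 0.0182). Those comparisons share the 4 normal livers. Ccnd2 and the D cyclin partner Cdk4 showed differences of 0.06 and -0.08 with overlap. Cdk7, of the kinase complex that activates Cdks, was lower without overlap at -0.36, while its dimmer probe set differed by 0.19.

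Among 11 other Cdk inhibitors, Rb family proteins and their partners, 4 were higher without overlap and 2 lower, with a median of 0.40 and none called. The median was 0.26 without Fah off liver 3 and 0.67 without Fah p21 off liver 1. Cdkn2c, the Cdk4 and Cdk6 inhibitor p18, read 184.8, 220 and 188.4 against 407.9 and 899.4 (log2 1.57 ± 0.30, limma adjusted p = 0.108). Rbl1, the Rb relative p107, read 78, 66.4 and 55.2 against 104.8 and 298.9 (log2 1.31 ± 0.42). Cdkn2d, an inhibitor of the same kinases as Cdkn2c, read 87.3, 88.2 and 92.6 against 157.7 and 278.3 (log2 1.15 ± 0.33). The fourth was Lin9, a subunit of the MuvB core, at 0.95 ± 0.25. Cdkn1c, p57 and a close relative of p21, was lower without overlap, with 343.3, 316.9 and 217.7 against 169.8 and 130.3 (log2 -0.91 ± 0.49, adjusted p = 0.738). Cdkn1b, p27 and the other relative, differed by 0.61 ± 0.30 with overlap. Rb1 and Rbl2 differed by 0.27 and -0.13 and Cdkn2b by -0.44, each with overlap, and Lin37 by -0.10. Of 10 E2F and mitotic transcription factors, 4 were higher without overlap, Tfdp1 at 0.58, E2f5 at 0.45, Mybl2 at 0.43 and E2f4 at 0.40. Foxm1, a driver of mitotic genes, differed by 0.41 with overlap, as did E2f1 at 1.00 and E2f8 at 1.28, and E2f3 was lower at -0.41.

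DNA replication genes were higher by less. Of 49 measured, 31 were higher without overlap, 1 was lower, 29 had an unadjusted p under 0.05 and a positive sign, and the median was 0.72; Cdc6 passed. Mcm5, a subunit of the helicase ring, read 76, 76.2 and 53.6 against 285.2 and 531.9 (log2 2.36 ± 0.33, limma adjusted p = 0.0515). The other ring subunits Mcm2, Mcm3, Mcm4, Mcm6 and Mcm7 had differences of 0.84, 1.55, 1.41, 2.89 and 1.53, all without overlap. Mcm6 varied most among the Fah off livers, with 238.4, 65.6 and 14.9 against 324.9 and 976.9. Cdt1, which brings the ring to origins, differed by 1.39 ± 0.29, and Pcna, the sliding clamp, by 0.80 ± 0.20 from 1542, 1619 and 2186 to 2509 and 3744. Of the origin recognition subunits, Orc2, Orc3 and Orc4 lay between -0.04 and 0.03, Orc6 at 0.36 and Orc1 at 0.72, all with overlap, and Orc5 was lower without overlap at -0.33.

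Genes of nucleotide synthesis were mostly higher in value. Rrm2, the S phase subunit of ribonucleotide reductase, read 84.2, 86.5 and 75.2 against 453.2 and 2327.4 (log2 3.5 ± 0.51, limma adjusted p = 0.0523), and Rrm1, its partner, differed by 0.85 ± 0.23. In all, 7 of 13 genes of nucleotide synthesis were higher without overlap and 1 was lower, Ctps at -0.42, with a median of 0.39, or 0.20 without Fah p21 off liver 2. Of 11 genes of chromatin assembly in S phase, 9 were higher without overlap and none lower, with a median of 0.72, or 0.38 without Fah p21 off liver 2. Asf1b, a histone chaperone, read 139.1, 135.7 and 127.6 against 297.4 and 566.8 (log2 1.55 ± 0.29). H2ax, a histone variant marked at DNA breaks, read 389.7, 333.7 and 404.8 against 622.6 and 1463.4 (log2 1.33 ± 0.28). No gene of these 2 lists passed after adjustment.

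**Figure D3:**
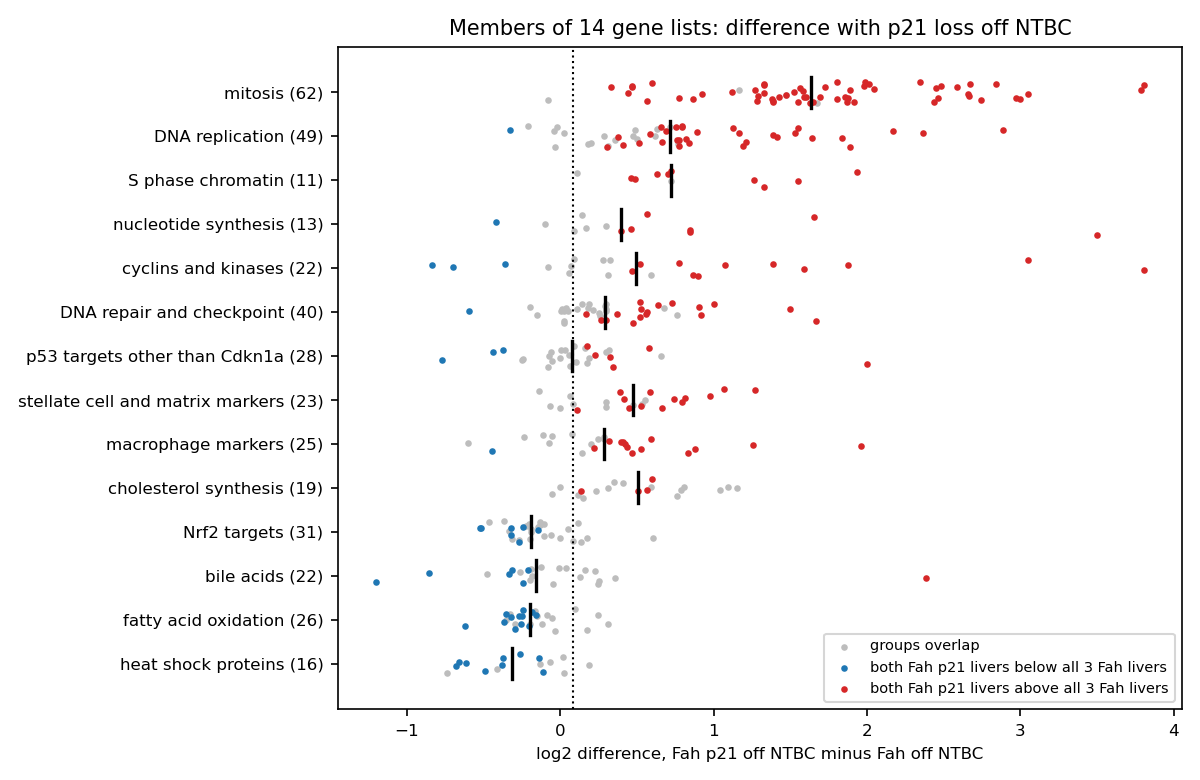
Log2 difference between Fah p21 off and Fah off livers for each measured member of 14 gene lists, with the number of genes in brackets, a bar at the list median and a dotted line at the all-gene median of 0.08. Mitosis has the highest median at 1.64 and heat shock proteins the lowest at -0.32. The cholesterol synthesis median of 0.51 was -0.01 without Fah p21 off liver 1 and 0.88 without liver 2.

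Promoter sequences are shown because the mitosis and replication genes were higher together and their promoters are known to carry short elements read by E2F and MuvB complexes. The cell cycle genes homology region (CHR) was searched as TTTGAA or TTCGAA, the E2F element as TTTCGCGC, TTTGGCGC or TTTCCCGC, and the CCAAT box as CCAAT, each on both strands. The windows were RefSeq promoters of GRCm38.p6, from 250 bases before a gene's start to 50 after it. The 160 bases before the start of 4 mitosis genes follow, 5′ to 3′ on the gene's strand, with matches to the CHR element in capitals.
Cdk1, chr10:69352913-69353072, minus strand: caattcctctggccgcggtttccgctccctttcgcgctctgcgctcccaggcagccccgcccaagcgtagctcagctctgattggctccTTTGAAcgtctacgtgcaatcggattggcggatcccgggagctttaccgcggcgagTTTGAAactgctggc
Cdc20, chr4:118437344-118437503, minus strand: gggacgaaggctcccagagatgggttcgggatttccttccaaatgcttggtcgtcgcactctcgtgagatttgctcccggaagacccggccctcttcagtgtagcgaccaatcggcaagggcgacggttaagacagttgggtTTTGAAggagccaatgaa
Ube2c, chr2:164769769-164769928, plus strand: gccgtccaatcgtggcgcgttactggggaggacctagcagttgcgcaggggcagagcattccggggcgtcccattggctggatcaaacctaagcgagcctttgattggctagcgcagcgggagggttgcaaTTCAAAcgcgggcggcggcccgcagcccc
Top2a, chr11:99024190-99024349, minus strand: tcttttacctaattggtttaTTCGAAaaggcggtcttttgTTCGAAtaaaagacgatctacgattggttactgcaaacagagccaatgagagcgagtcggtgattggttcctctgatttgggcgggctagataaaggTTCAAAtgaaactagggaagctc

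In Cdk1 the matches began 71 and 15 bases before the start, in Cdc20 18, in Ube2c 29, and in Top2a 140, 120 and 23. The same stretch is given for 3 replication genes, with matches to the E2F element in capitals; where 2 matches overlap, the run is longer.
Mcm6, chr1:128359706-128359865, minus strand: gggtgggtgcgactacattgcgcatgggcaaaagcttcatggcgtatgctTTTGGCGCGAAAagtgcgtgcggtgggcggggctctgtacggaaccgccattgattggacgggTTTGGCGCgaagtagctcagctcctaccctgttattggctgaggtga
Mcm5, chr8:75109349-75109508, plus strand: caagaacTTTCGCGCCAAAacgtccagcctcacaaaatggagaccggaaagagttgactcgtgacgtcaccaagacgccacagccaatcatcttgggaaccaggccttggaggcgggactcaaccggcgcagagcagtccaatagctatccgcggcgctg
Cdc6, chr11:98907991-98908150, plus strand: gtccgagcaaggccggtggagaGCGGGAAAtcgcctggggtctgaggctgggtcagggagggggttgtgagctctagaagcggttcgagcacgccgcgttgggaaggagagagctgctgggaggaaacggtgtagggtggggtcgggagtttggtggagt

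A CHR match was found in 43 of 57 promoters of 53 mitosis genes, which is 75.4%, against 18.9% of 53 promoters of 41 replication genes and 19.2% of all 32851 promoters. An E2F match was found in 32.1% of the replication promoters, 5.26% of the mitosis promoters and 1.84% of all promoters. A CCAAT match was found in 70.2%, 50.9% and 37.4% of the mitosis, replication and all promoters. A match is a description of these letters. Of the mitosis genes without a CHR match in the window, 14 of 14 were higher without overlap with a median of 1.54, and of those with one, 36 of 39 with a median of 1.73. Over all 1709 measured genes with a CHR match the median was 0.11 and 20.7% were higher without overlap, close to the 18.2% of all 9887 measured genes with a promoter entry.

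The other p53 targets lay at the all-gene median. Of 28 measured, none passed, 6 were higher without overlap, 3 were lower, and the median of 0.08 was that of all genes. Ccng1, a cyclin induced by p53, read 3180, 3227 and 2451 against 2690 and 3210. Mdm2, the ligase that degrades p53, read 1596, 1584 and 1041 against 1369 and 1781, and Phlda3, a repressor of Akt signalling, differed by 0.00. In these 3 genes the groups overlapped. The smallest p belonged to Pmaip1, the BH3-only protein Noxa, at 19, 33 and 28.7 against 109.6 and 166.5 (log2 2.00 ± 0.34, limma adjusted p = 0.0846). Gtse1, which holds p53 in the cytoplasm, came next at 0.66 with overlap. Rrm2b, the p53-induced subunit of ribonucleotide reductase, was lower without overlap at -0.44 ± 0.23 (adjusted p = 0.728). In DNA repair and checkpoint genes, 17 of 40 were higher without overlap, 1 was lower and the median was 0.29, or 0.13 after quantile normalization, with none called. Topbp1, an activator of the checkpoint kinase Atr, read 161.8, 233.9 and 107.6 against 351.3 and 629.4 (log2 1.5 ± 0.38), and Parp1, a sensor of DNA breaks, differed by 0.48 ± 0.15. Of 27 apoptosis genes 5 were higher and 2 lower without overlap, with a median of 0.05 that was -0.03 without Fah off liver 1.

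To ask whether p21 genotype also mattered on NTBC, the difference off the drug was set against the difference between the single Fah p21 double knockout and the single Fah knockout liver on NTBC, in a fit with 6 states. With 1 liver each on NTBC, those are assumed to vary as the others did. No probe set passed in limma, and 1246 had an unadjusted p under 0.05. For the mitosis genes the median difference on NTBC was 0.16 and the median of the difference between both states was 1.49, with 17 of 62 at an unadjusted p under 0.05 and all 17 positive, against 2.40% of all genes. Cdk1 read 25.7 in the Fah liver and 25.8 in the Fah p21 liver on NTBC, and its difference between states was 3.80 ± 1.02 (adjusted p = 0.719). Birc5 read 27.7 and 11.8 on NTBC, with 4.58 ± 1.07 (adjusted p = 0.684). For DNA replication the medians were 0.16 on NTBC and 0.43 between states, with 7 of 49 at an unadjusted p under 0.05. The genes with the largest such values in either direction included Cyp4a14 and Cyp2c37, which differed among the livers on NTBC: Cyp4a14 read 1094 and 58.0 there, and Cyp2c37 137.3 and 3126.

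The 2 double knockout livers on the 430 2.0 array, here livers 3 and 4, gave a further view without a test, since each array type was scaled on its own. Each of the 7 livers off NTBC was expressed as the log2 difference from normal liver 4 on the same array type. Averaged over the mitosis genes this was 0.32, 0.16 and -0.05 in Fah off livers 1, 2 and 3, 1.22 and 2.54 in Fah p21 off livers 1 and 2, and 3.22 and 3.12 in livers 3 and 4. By this average livers 3 and 4 were above liver 2, and all 4 double knockout livers above the Fah off livers. Single genes differed in the order of livers 2, 3 and 4. Cdk1 was at 5.51 in liver 2 against 3.41 and 3.65 in livers 3 and 4, and Plk1 at 2.94 against 4.16 and 3.99. Livers 3 and 4 were both above all 3 Fah off livers in 59 of the 62 genes and below in none, against 32.0% and 22.4% of all genes. For DNA replication the averages were 0.10, 0.03 and -0.13, then 0.56 and 1.07, then 1.18 and 1.18, and for S phase chromatin all 11 genes were higher in both. Both were above all 3 Fah off livers in 36 of the 49 replication genes and below in 5. Mcm6 was not separated, at 2.98 and 3.47 in livers 3 and 4 against 3.92, 2.20 and 0.60 in the Fah off livers. Over the p53 targets the Fah off livers averaged 1.09, 1.08 and 1.03, livers 1 and 2 1.15 and 1.23, and livers 3 and 4 1.62 and 1.57. In 16 of these 28 genes, or 57.1%, livers 3 and 4 were both above all 3 Fah off livers, and in 4 both were below. The offset on 430 2.0 was 3.8, below the 9.9 of 430A, so differences of dim probe sets were understated less there. The part of array type and offset in these values was not tested.

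**Figure D4:**
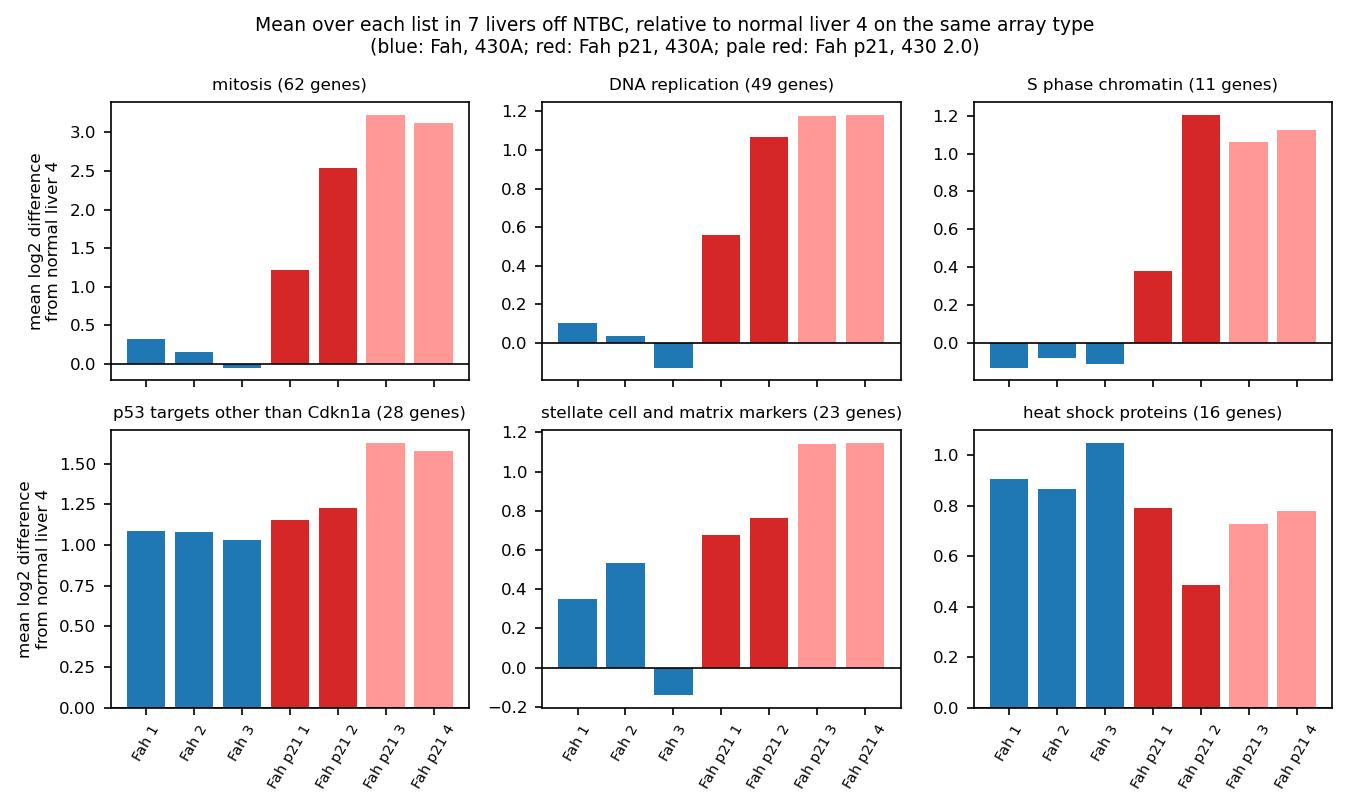
Mean log2 difference from normal liver 4 on the same array type over each of 6 gene lists, with 1 bar for each of the 3 Fah off and 4 Fah p21 off livers off NTBC. For mitosis the Fah off livers lie between -0.05 and 0.32 and the Fah p21 off livers between 1.22 and 3.22.

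On the lower side Igfbp2, an insulin-like growth factor binding protein made by hepatocytes, read 2664, 3091 and 4733 in the Fah off livers and 825.2 and 1262 in the Fah p21 off livers (log2 -1.72 ± 0.24, limma adjusted p = 0.0515). Livers 3 and 4 read 1409 and 1219 on 430 2.0 beside 4725 in normal liver 4. The groups overlapped there for other genes: relative to normal liver 4, Gpc3 was at 3.62 and 3.73 in livers 3 and 4, against 2.94, 3.02 and 4.36 in Fah off livers 1, 2 and 3. Rusc2 was at 3.27 and 2.80, against 2.78, 2.51 and 2.83 in the 3 Fah off livers. Atoh8, a helix-loop-helix transcription factor, read 169, 119.2 and 189.6 against 33.1 and 30.4 (log2 -2.0 ± 0.48, adjusted p = 0.231), while normal liver 4, a double knockout on NTBC, read 27.7. Gpc3, a fetal liver proteoglycan, read 604.7, 639 and 1627 against 357 and 400.6, and Peg3, an imprinted gene, 857.5, 1093 and 820.7 against 505.2 and 342.6 by its brightest probe set. In both the groups were separate, and neither passed. For Gpc3 the separation was fixed by its choice from genes without overlap. Rasl11b, a Ras-like GTPase, read 460.6, 452.8 and 435.2 against 150.2 and 209.9 (log2 -1.29 ± 0.24, adjusted p = 0.104). Afp, alpha-fetoprotein, read 6971, 6574 and 11848 against 5193 and 6478. The other genes among the 12 largest negative differences of genes with no overlap and bright Fah off livers, chosen after their values had been seen, were Rusc2, Fastk, Rec8, Gga1, Rgs16, Slc13a3, St3gal6 and Cyp8b1, with adjusted p from 0.192 to 0.661.

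Several metabolic and stress lists lay slightly below the all-gene median, with no member called. Of 16 heat shock proteins, 9 were lower without overlap and none higher, with a median of -0.32; Hspb1 read 6348, 6270 and 7160 against 4502 and 3727 (log2 -0.68 ± 0.28), and Hspb8 differed by -0.62 ± 0.22. Their median was -0.13 without Fah p21 off liver 2 and -0.49 after scaling to a common median. Of 26 genes of fatty acid oxidation, 12 were lower without overlap and none higher, with a median of -0.20, or -0.12 without Fah p21 off liver 2. Pdk4, a kinase that turns off pyruvate oxidation, read 2212, 2577 and 1801 against 1475 and 1346 (log2 -0.62 ± 0.22), and Acads, a mitochondrial dehydrogenase of short-chain acids, differed by -0.29 ± 0.12. Of 31 Nrf2 targets 7 were lower and none higher, with a median of -0.19. Without Fah p21 off liver 2 that median was 0.01, and after quantile normalization -0.05. Among 22 bile acid genes 6 were lower and 1 higher. Cyp8b1, the sterol hydroxylase that makes cholic acid, read 3198, 3374 and 2293 against 1846 and 863.9 (log2 -1.20 ± 0.27), and Amacr, a racemase of bile acid precursors, read 287.5, 287.4 and 145.1 against 1442 and 1067 (log2 2.38 ± 0.44, limma adjusted p = 0.103). Amacr was also higher in normal liver 4, a double knockout, at 1584 against 493.2 to 697.4 in the other normal livers.

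No member of the marker lists of other cell types passed. Defa3, a defensin by annotation, passed and was in none of these lists. Of 11 cholangiocyte markers 2 were higher without overlap and none lower, and of 20 endothelial markers 4 were higher and 2 lower, near the shares of all genes. Neutrophil markers had 5 of 12 higher without overlap and none lower, with a median of 0.17, or 0.02 after quantile normalization. Of 23 stellate cell and matrix markers, 13 were higher without overlap and none lower, with a median of 0.47 and none called. Sparc, a matrix protein, read 1195, 1432 and 1125 against 1872 and 1872 (log2 0.59 ± 0.17), and Pdgfrb, a receptor of mesenchymal cells, read 111.6, 120.6 and 62 against 180.4 and 211.5 (log2 0.97 ± 0.30). The summed signal of the list was 11747, 12849 and 9262 in the Fah off livers and 14123 and 15969 in the Fah p21 off livers. Fah off liver 3 was the lowest, and without it the median was 0.33, with 13 genes higher and 2 lower without overlap. Of 25 macrophage markers, 13 were higher without overlap and 1 lower, with a median of 0.29, or 0.44 without Fah off liver 1; Itgam read 8.6, 3.3 and 3.4 against 24.1 and 27.1, and Gpnmb 124.9, 118.8 and 26.5 against 190.2 and 547.1. The defining Kupffer cell marker Clec4f read 1097, 1039 and 1306 against 1399 and 1228 and overlapped, and the summed macrophage signal was 17642, 17531 and 13546 against 18802 and 20057. Summed hepatocyte identity genes were 127948, 115566 and 124649 against 117400 and 108902. The part of these cell type differences in the cell cycle results was not tested.

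Knockout alleles can carry flanking sequence of another strain, so the neighbours of Cdkn1a on chromosome 17 were read. Of the 20 nearest measured genes on each side, none passed, 6 were higher and 5 lower without overlap, and the median was 0.10. Tff3, the trefoil factor of mucus, had the smallest p, with 289.7, 236.2 and 239.1 against 446.2 and 454.7 (log2 0.80 ± 0.24, limma adjusted p = 0.382). Uhrf1bp1 was lower at -0.70 ± 0.24. All 40 neighbours lay between -0.70 and 0.89.

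**Figure D5:**
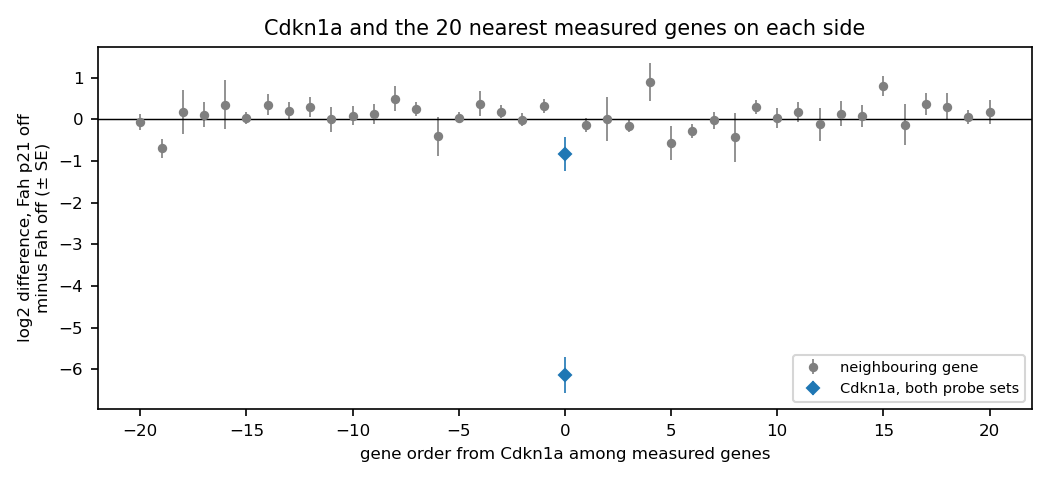
Log2 difference between Fah p21 off and Fah off livers, with its standard error, for both Cdkn1a probe sets at order 0 and the 20 nearest measured genes on each side. The neighbours lie between -0.70 and 0.89, while the Cdkn1a probe sets are at -0.82 and -6.13.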

How the data were processed

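The 9 livers of the 430A array and 3 of the 430 2.0 array were read from tables that the authors deposited, holding linear intensity signals for every probe set. The submitters' processing notes name MAS5 and GCOS 1.4.0.036. The authors had scaled them: the mean signal between the 2nd and 98th percentile lay between 349.5 and 350.1 on every array. RNA came from 10 mg of liver, per the labels' protocols.

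From these, log2(signal + 9.9) was computed on 430A, the offset being the 10th percentile of all signals. The 64 control probe sets were left out, with no filter on low signals. One limma fit (limma 3.58.1 in R 4.3.3, with the intensity trend) held all 9 arrays in 3 groups, so the spread was shared. Differences of genotype and drug among the normal livers enter that spread. For Fah the SE was 1.44, with signals from 181.9 to 7120 in the normal livers and from 100.8 to 114.2 off NTBC. P-values were adjusted by Benjamini-Hochberg over 22626 probe sets. The number of arrays limits the precision. No label gives a batch, so none was tested.

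Symbols came from GEO's platform annotation, updated through Entrez identifiers to GRCm38.p6: 20380 probe sets had 1 symbol, 691 several and 1555 none. A gene was read by its brightest probe set, judged over the 9 arrays. Named genes were the targeted ones, those that passed, the cyclins, kinases and inhibitors, up to 8 passing members of a list or, since no list had more than 1, its 2 members of smallest p, the 5 largest of the off against on comparison, and the neighbours of Cdkn1a; other names, including the 12 largest differences in each direction whatever their test, were chosen after their values had been seen. Members and lists were chosen with earlier results of these data known. The fit was tested on simulated data. Tables and figures used Python 3.11.15, pandas and matplotlib. Promoters are RefSeq's, matched by symbol. Alternatives were other filters, offsets and scalings, fits on fewer arrays or more groups, a replicate block, and leaving out each array.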

Additional observations from a re-analysis of the deposited data

Results flagged for a closer look

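In 27 named genes the 4 normal livers were checked for a liver far from the others, and 3 showed one. Chance gives about 1 in 20 groups of replicates. These 4 livers differed in genotype and drug, and the genes were chosen by their values, so that rate cannot be applied to them. Normal liver 1 read 45.8 for Ccnb2, against 10.8 to 16.5 in the other normal livers. Normal liver 3 read 19.1 for Mcm6, against 5.9 to 6.5. Normal liver 2 read 177.7 for Rasl11b, against 106.5 to 113.6.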

How the results depend on the processing

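The number of probe sets that passed, 8 in the reported fit, moved with most choices. It was 1 with only probe sets whose mean was at or above the 40th percentile, 3 with an offset of 1, 21 with an offset at the 25th percentile, 17 after scaling to a common median, 1 with only the 5 arrays off NTBC, 2 with 6 states and 2 with no trend. Leaving out 1 array gave from 2 to 151, the latter without Fah p21 off liver 1. With the replicate block no probe set passed in limma, 1356 having an unadjusted p under 0.05. Livers of the same number correlated at 0.0578 and 0.0543 in their deviations from the group means. With 2 Fah p21 off livers those deviations mirror each other, so the correlations cannot show whether the numbers pair the livers. The number that passed lay between 6 and 10 with a filter on 2 arrays, quantile normalization and the robust fit. It stayed in that range with the mean of a gene's probe sets and a 2-fold minimum. For the off against on NTBC difference, 0 in the reported fit with 1246 at an unadjusted p under 0.05, 1 passed with an offset of 1 and 1 with the filter on 2 arrays; the other alternatives gave 0. The cause of these moves was not tested. Over 27 named genes no difference changed sign; of their recomputed values 492 kept their side of the threshold, 17 newly passed and 46 no longer did. Cdc6 passed in 16 of 19 settings, Cdk1 in 7 of 20, Defa3 in 6 of 19 and Hccs in 4 of 21. Leaving out each of the 5 livers off NTBC from the count of mitosis genes higher without overlap, chosen after seeing the data, gave 58 to 61. That count cannot fall when a liver is left out. Dim signals limit these calls: Cdc6 and Ska1 were under 5 in the Fah off livers. Cdc6 and Defa3 entered neither fit with a filter on signal, and Cdk1 did not enter the one on mean signal. Their totals of settings are smaller for that reason.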

Other observations

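Secreted factors, acute phase genes and clotting factors were not described above. Ccl2, a monocyte chemokine, read 37.6, 66 and 11.3 in the Fah off livers and 113 and 110.9 in the Fah p21 off livers (log2 1.52 ± 0.45, limma adjusted p = 0.387). Mmp12 and Mmp13, matrix proteases, were higher without overlap at 1.19 and 1.44, and 7 of 21 genes of this list of secreted factors were higher without overlap and none lower. Lcn2, the acute phase protein lipocalin 2, read 652.4, 637.2 and 740.6 against 1235 and 3309 (log2 1.57 ± 0.53, adjusted p = 0.498). Of 32 complement and coagulation genes 9 were higher without overlap and none lower, with a median of 0.26, or 0.06 without Fah off liver 3, 0.15 without Fah p21 off liver 2 and 0.48 without Fah off liver 1. C2, a complement protease, read 189, 172 and 123.1 against 266.4 and 289.8, and F7, clotting factor VII, 191.1, 193.4 and 124.4 against 245.9 and 288.3. Both were below all 4 normal livers in every liver off NTBC. Fos, an immediate early gene of growth signals, read 109.2, 111.4 and 143 against 197.8 and 335.2 (log2 1.04 ± 0.36, adjusted p = 0.513). Cyp1a1, a target of the aryl hydrocarbon receptor, read 1776, 2520 and 3019 against 1493 and 785.4 (log2 -1.13 ± 0.28, adjusted p = 0.238), and the receptor gene Ahr was lower without overlap too, with 1068, 936.1 and 1028 against 720.7 and 591.6 (log2 -0.62 ± 0.15).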
